A study of Mus musculus with 36 samples.

Results

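The genes of the cytosolic ribosome were followed through RNA sequencing of sorted P-bodies, cytoplasm, polysomes and total RNA of mouse cells. Members were taken by name from the count tables, as symbols beginning with Rpl, Rps or Rplp and a number, together with Rpsa. The Rps6k kinase genes and symbols marked as pseudogenes by -ps were left out. This gave 90 of 25239 genes in the table of wild-type and knockdown P-body samples, 90 of 25229 genes in the polysome table and 92 of 48440 genes in the table of Ago2 knockout cells, or 94 symbols over the 3 tables. Of these, 77 encode the standard ribosomal proteins and are called core genes here (31 of the small subunit, 43 of the large subunit and the 3 genes of the acidic stalk), and all 77 were in each table. The others were genes named after these with an l, rt or rg suffix, or close copies, called paralogs here. Among these, RefSeq annotates Rpl6l, Rps12l1, Rps3a2 and Rps3a3 as pseudogenes and Rps4l as a transcribed pseudogene. Whether each of the other paralogs encodes a ribosomal protein was not checked. The name rule also takes in Rps19bp1, although its product is a binding partner of RPS19 and not a ribosomal protein.

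The 36 libraries fell into 16 groups. Naive embryonic stem (ES) cells were v6.5 cells held in 2i/LIF and primed cells were the same line moved to activin A and bFGF. Both carried a GFP-LSM14A fusion through which P-bodies were sorted as fluorescent particles from the cytoplasmic fraction. By the paper's methods this fraction was the resuspended pellet of a lysate cleared of nuclei, taken before sorting. It thus still held P-bodies, was not the whole cytoplasm, and is called cytoplasm here. Mouse embryonic fibroblasts (MEFs), the same kind of cells on day 3 of reprogramming with a control short hairpin RNA, and day 3 cells with a hairpin against Nudt21, a cleavage and polyadenylation factor, carried the fusion by lentivirus. The reprogrammable MEFs came from mid-gestation embryos and held a doxycycline-inducible Oct4, Klf4, Sox2 and c-Myc cassette in Col1a1, the M2-rtTA transactivator at Rosa26 and an EGFP reporter of Pou5f1. Ago2 knockout ES cells were made with paired CRISPR cuts and had no wild-type partner in their table. P-body and cytoplasm groups had 2 libraries each. In the polysome experiment GFP-LSM14A ES cells with both Ddx6 alleles fused to an FKBP12 degron tag and mCherry were given dTAG-13 to remove the DDX6 protein, control cells were harvested alongside, and polysome RNA and total RNA had 3 libraries per group.

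Ribosomal protein mRNAs are among the most abundant and most evenly regulated messages of a growing cell. Most of them begin with a 5′ terminal oligopyrimidine (TOP) tract, a C followed by further C or T letters, through which mTOR signalling and the LARP1 protein set their translation. P-bodies are cytoplasmic condensates of untranslated mRNA with the DDX6 helicase, LSM14A and decapping factors, and short, well translated housekeeping messages are commonly found outside them.

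Because members may share this feature, the annotated transcription starts were read from RefSeq (assembly GRCm38.p6). For 69 members a start was in the promoter table. A C at the start followed by at least 4 further C or T letters was found at 15 of these 69 (21.7%), compared with 813 of 27025 genes with an entry (3.01%), 0 of 69 mitochondrial ribosomal protein genes and 5 of 18 other known TOP genes (27.8%). When the tract could begin anywhere within 10 bases of the annotated start, 42 members (60.9%) and 9297 of all genes (34.4%) had one. The windows below run from 10 bases before the start and are given for members whose measurements are described in full, for the near-identical pair Rps27 and Rps27rt, and for further genes with clear tracts. Capitals mark the pyrimidine run that begins at the annotated start, and a window without capitals has no such run at that base.
Rps6, chr4:86857353-86857377, minus strand: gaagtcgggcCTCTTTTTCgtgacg
Rpl38, chr11:114668570-114668594, plus strand: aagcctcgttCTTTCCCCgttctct
Rplp2, chr7:141447641-141447665, plus strand: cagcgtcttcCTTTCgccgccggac
Rps10, chr17:27635230-27635254, minus strand: gcgcacgcccCTTCCTTTCCagcct
Rps27, chr3:90213634-90213658, minus strand: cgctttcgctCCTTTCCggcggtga
Rps27rt, chr9:114982725-114982749, minus strand: ttatcccttgCTTTCCggcggtgac
Rplp0, chr5:115559457-115559481, plus strand: cgggtttcgaggaccgcctggttct
Rpsa, chr9:120127756-120127780, plus strand: ttatttaaggacgtcatttccggcc
Rpl4, chr9:64173377-64173401, plus strand: tttcctgtgggagcagccgggtaga
The letters describe the annotated start only, and a window without the run says nothing of starts used in these cells. The 77 core genes lie on 19 chromosomes, with 14 on chromosome 7. In the same assembly Rpl3 spans 15:80077781-80083406, Rplp0 5:115559467-115563729, Rps6 4:86854099-86857367 and Rpsa 9:120127766-120132369.

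The P-body libraries and their cytoplasm held 6769731 to 31185874 counted reads, those of the Ago2 knockout 15624401 to 17486268 and the polysome set 13308782 to 29362195. In naive and primed ES cells and MEFs the marker genes of each state were high where the label placed them, with summed fibroblast markers of 34770 to 37910 CPM (counts scaled to a common library total) in MEF cytoplasm and at most 2.2 CPM in naive cells. Nudt21 stood at 89.1 to 115 CPM in the 4 day 3 control libraries and at 4.99 to 5.94 CPM in the 4 knockdown libraries, and Ago2 at 2.57 to 4.52 CPM in the knockout table. Ddx6 RNA does not check the degron, which acts on the protein. The labels do not say whether libraries of a group came from separate cultures. The paper describes its naive and primed mouse samples as biologically independent. The p-values measure the spread between these libraries. In bulk RNA a lower share of a message and a higher share of other messages cannot be told apart.

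Ribosomal protein genes took a smaller share of all counted reads in naive P-bodies than in naive cytoplasm and a larger share in MEF P-bodies than in MEF cytoplasm. The share was 2.0% and 2.01% in the 2 naive P-body libraries and 2.93% and 3.33% in naive cytoplasm. It was 2.75% and 2.71% in primed P-bodies and 3.13% and 2.91% in primed cytoplasm. It was 4.97% and 4.80% in MEF P-bodies and 1.79% and 2.01% in MEF cytoplasm. In all 3 states the P-body and cytoplasm libraries did not overlap, and the cytoplasmic share was lowest in MEFs, where the P-body share was highest. On day 3 of reprogramming the share was 3.69% and 5.30% in P-bodies of control cells and 2.98% and 3.02% in their cytoplasm, and with Nudt21 knockdown 3.99% and 3.68% compared with 2.75% and 3.13%. The Ago2 knockout libraries had 9.78% and 8.07% in P-bodies and 7.85% and 4.53% in cytoplasm. That table and the polysome table were counted with other software or annotation than the first one, so shares are compared only within a table.

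**Figure D1:**
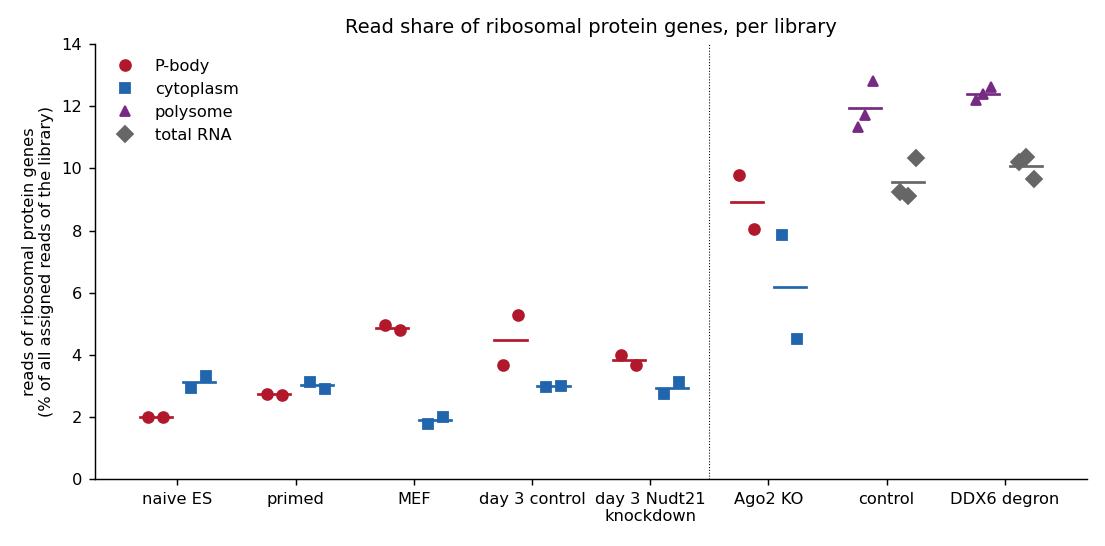
Share of all counted reads (percent, y axis) taken by the ribosomal protein genes in each of the 36 libraries, by group (x axis), with 1 point per library and a line at the group mean. A dotted line parts the first count table from the other tables. Naive P-bodies lie at 2.0% and 2.01%, under their cytoplasm, and MEF P-bodies at 4.97% and 4.80%, above theirs.

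P-body enrichment was taken as the log2 fold change of P-body over cytoplasm RNA in edgeR's quasi-likelihood test, with p-values adjusted over all tested genes by the Benjamini-Hochberg method and a gene called below 0.05. In naive ES cells 43 of 90 members were called lower in P-bodies and 0 higher, where 15.4% of all tested genes were called lower and 22.6% higher. The median log2 fold change of the members was −0.39 against −0.06 for all tested genes. The lower members were spread over both subunits, with 17 of 31 small subunit genes, 20 of 43 large subunit genes and all 3 stalk genes. DESeq2 called 39 members lower and 0 higher.

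The stalk genes, whose proteins form the flexible arm that recruits translation factors to the large subunit, were among the lowest. Rplp0, the scaffold of the stalk, had 672 and 656 CPM in naive P-bodies and 1256 and 1346 CPM in cytoplasm, a log2 fold change of −0.97 ± 0.10 (SE, adjusted p = 0.00136, edgeR). Rplp2, one of its acidic partners, had 144 and 145 CPM in P-bodies and 227 and 250 CPM in cytoplasm, a log2 fold change of −0.72 ± 0.10 (adjusted p = 0.00446, edgeR). In both genes each P-body library was under each cytoplasm library. Rplp1, the other acidic partner, fell by 0.68 (adjusted p = 0.00532, edgeR). Rps29, a zinc-binding protein of the small subunit head, had 143 and 139.8 CPM in P-bodies and 248 and 301 CPM in cytoplasm and fell by 0.96 on the log2 scale (SE 0.13, adjusted p = 0.00359, edgeR). Rpl39l, a paralog of Rpl39 best known from testis, had the lowest value among members at 10 CPM or more, −1.15 (adjusted p = 0.0391, edgeR), at 6.14 and 7.28 CPM against 10.96 and 18.9 CPM.

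Other members described in full were closer to their cytoplasmic level. Rpl3, a large subunit protein near the catalytic centre, had 950.1 and 956 CPM in naive P-bodies and 1049 and 1059 CPM in cytoplasm, a log2 fold change of −0.14 ± 0.09 that did not pass the test (adjusted p = 0.249, edgeR). Rps6, the small subunit protein that S6 kinases phosphorylate, had 563 and 579 CPM against 628 and 672 CPM (log2 fold change −0.19, adjusted p = 0.178, edgeR). Rpsa, a small subunit protein also known as the laminin receptor precursor, had 579 and 587 CPM against 708 and 709 CPM (log2 fold change −0.28, adjusted p = 0.0573, edgeR). For all 3 genes the P-body libraries lay under the cytoplasm libraries without overlap, and for none did the difference pass. Rps2 and Rpl8, from the small and the large subunit, were called at −0.29 and −0.35 (adjusted p = 0.0496 and 0.0355, edgeR), close to the threshold. Rps3, a small subunit protein also known for a part in DNA repair, fell by 0.57 (adjusted p = 0.00662, edgeR) and Rpl10a by 0.43 (adjusted p = 0.0262, edgeR), while Rpl13a, at −0.39, did not pass (adjusted p = 0.163, edgeR). The highest values at 10 CPM or more were 0.34 for Rps23rg1, a gene named after Rps23, and 0.32 for Rpl22l1. Neither passed (adjusted p = 0.279 and 0.255, edgeR).

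The naive count depended on single libraries. It was 0 without the first and 0 without the second P-body library, 83 without the first cytoplasm library and 68 without the second. The median moved from −0.39 to between −0.52 and −0.26.

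In primed ES cells the members were split. Here 38 of 89 tested members were called lower in P-bodies and 9 higher, where 24.2% and 26.5% of all tested genes were called lower and higher. The median was −0.15, against 0.00 for all genes. The stalk genes were again lower, with Rplp0 at 761 and 723 CPM in P-bodies and 1180 and 1187 CPM in cytoplasm (log2 fold change −0.67 ± 0.04, adjusted p = 6.53e-08, edgeR). Rpl3 had 1256 and 1245 CPM in P-bodies and 1386 and 1338 CPM in cytoplasm (log2 fold change −0.12 ± 0.04, adjusted p = 0.0199, edgeR). Rps6 and Rpsa were at −0.10 and −0.11 and were not called (adjusted p = 0.0721 and 0.0682, edgeR).

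The 9 members that rose in primed P-bodies were Rpl4, Rpl13, Rpl41, Rps3a1, Rps19, Rps20, Rps27 and the paralogs Rps27rt and Rpl7l1. Rps19, the small subunit protein most often mutated in Diamond-Blackfan anaemia, had 585 and 574 CPM in P-bodies and 517 and 484 CPM in cytoplasm, a log2 fold change of 0.21 ± 0.05 (adjusted p = 0.00314, edgeR). Rpl4 had 1813 and 1792 CPM against 1641 and 1577 CPM (0.16 ± 0.04, adjusted p = 0.00323, edgeR), and Rpl41, which encodes the smallest ribosomal protein, 631 and 637 CPM against 573 and 539.6 CPM (0.19, adjusted p = 0.00529, edgeR). Rps27 and Rps27rt had nearly the same values in each library (90.3 and 85.2 CPM for the first and 90.1 and 84.7 CPM for the second in P-bodies), so their shared reads could not be assigned to either. The total count of called members was 31 and 25 without the first or the second P-body library, 41 and 61 without the first or the second cytoplasm library, and 3 in 1 fit over all groups of the table.

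The enrichment itself was then compared between naive and primed cells with an interaction contrast over the 4 groups. It was lower in naive cells for 36 of 90 members and higher for 0, where 11.4% and 13.9% of all tested genes were called lower and higher. The median difference was −0.40 (all genes −0.04). Among them were 15 small subunit genes, 16 large subunit genes and the 3 stalk genes. The difference was −0.44 ± 0.10 for Rplp0 (adjusted p = 0.0126, edgeR), −0.31 ± 0.10 for Rpsa (adjusted p = 0.0440, edgeR) and −0.89 ± 0.18 for Rps29 (adjusted p = 0.00736, edgeR). Among members at 10 CPM or more the lowest value was that of Rps4l, a copy of Rps4x, at −0.97 (adjusted p = 0.000771, edgeR), and the highest were those of Rps23rg1 at 0.26 and Rpl21 at 0.07 (adjusted p = 0.468 and 0.792, edgeR). For Rpl3 it was −0.16 (adjusted p = 0.238, edgeR) and for Rps6 −0.23 (adjusted p = 0.140, edgeR). DESeq2 called 21 members, its size factors within edgeR 23, the test without the low-count filter 20 and 1 fit over all groups 5. The count was 79 without the first naive cytoplasm library and 49 without the second, 10 and 13 without the first or the second naive P-body library, 5 and 4 without a primed P-body library, and 15 and 13 without a primed cytoplasm library.

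In MEFs the whole family stood on the other side. All 77 core genes rose in P-bodies, as did 86 of the 88 members tested, and 0 were called lower, where 26.6% of all tested genes were called higher and 28.7% lower. The median log2 fold change was 1.37 for the members and 0.03 for all genes, and for the core genes it was 1.38, or 2.60-fold. Core values ranged from 0.37 to 1.76, with 56 of the 77 within 0.25 of the core median. For no tested member did a P-body library overlap a cytoplasm library, and the share of all tested genes without overlap was not counted. Small subunit, large subunit and stalk genes had medians of 1.36, 1.40 and 1.33.

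Rps6 had 1178 and 1106 CPM in MEF P-bodies and 423 and 443 CPM in cytoplasm, a log2 fold change of 1.40 ± 0.08 (adjusted p = 3.65e-06, edgeR). Rpl3 had 917 and 926 CPM against 453 and 462 CPM (1.01 ± 0.08, adjusted p = 8.43e-06, edgeR). Rplp0, among the lowest in naive P-bodies, had 1314 and 1409 CPM against 719 and 723 CPM (0.92 ± 0.08, adjusted p = 1.31e-05, edgeR). Rpsa had 816 and 845 CPM against 484 and 513 CPM (0.74 ± 0.08, adjusted p = 4.97e-05, edgeR). In each of these genes the 2 P-body libraries were close together and both were above the cytoplasm libraries.

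The highest values were those of Rpl36al and Rpl36a, 2 copies of a large subunit protein gene, at 1.80 and 1.76. Rps27a, which encodes a fusion of ubiquitin and a small subunit protein, followed with 967 and 796 CPM in P-bodies and 225 and 303 CPM in cytoplasm (1.74 ± 0.15, adjusted p = 1.37e-05, edgeR), and Rps19 with 1565 and 1526 CPM against 439 and 506 CPM (1.71 ± 0.09, adjusted p = 2.67e-06, edgeR). Rpl5 and Rpl11, which bind MDM2 as a complex with 5S RNA, rose by 1.20 and 1.55 (adjusted p = 1.59e-05 and 3.89e-06, edgeR). The lowest core gene was Rpl4, at 888 and 980.1 CPM against 715 and 734 CPM (0.37 ± 0.08, adjusted p = 0.00397, edgeR). Rpl7l1, a paralog of Rpl7, had 152 and 169 CPM against 149 and 150.3 CPM and did not pass (0.10, adjusted p = 0.367, edgeR). Of the paralogs tested, Rpl22l1 and Rps27l, relatives of Rpl22 and Rps27, rose with the core genes by 1.61 and 1.43 (adjusted p = 4.35e-05 and 1.15e-05, edgeR). Rps19bp1, which is no ribosomal protein gene, rose as well, by 1.33 (adjusted p = 2.09e-05, edgeR).

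**Figure D2:**
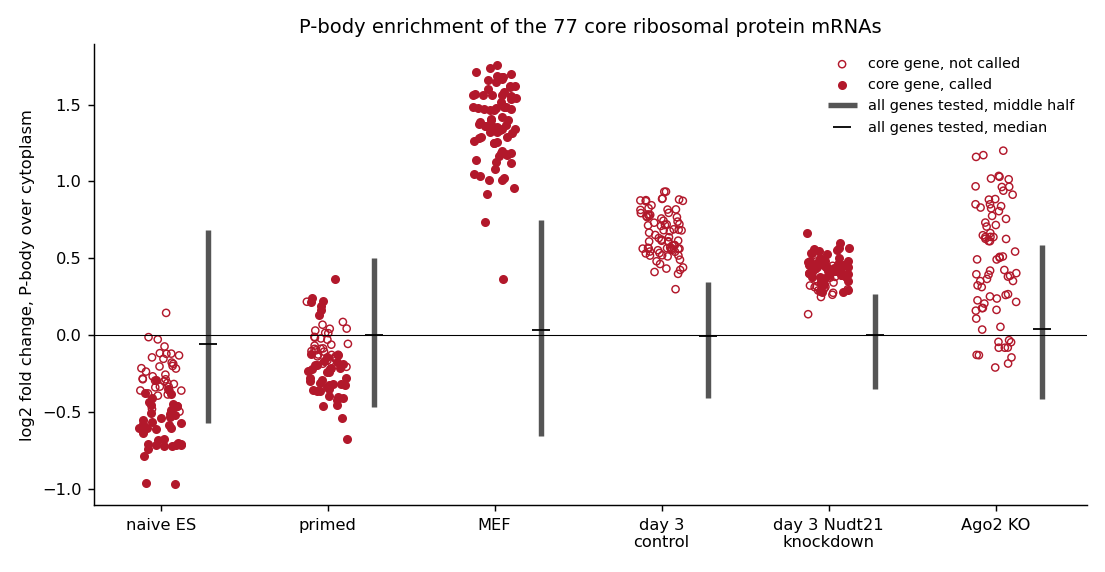
Log2 fold change of P-body over cytoplasm RNA (y axis) for the 77 core genes in each of 6 cell states (x axis), with 1 point per gene, filled where the test called it and open where not. The grey bar beside each column spans the middle 50% of all tested genes and its tick is their median. The core median is −0.39 for naive cells, −0.16 for primed cells and 1.38 for MEFs, and the MEF points all lie above 0.

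The MEF result was as large when a library was left out, with 84 to 87 members called and medians of 1.32 to 1.48. Summed markers of fibroblasts were lower in MEF P-bodies, at 10680 to 11260 CPM, than in MEF cytoplasm. Summed markers of lung epithelium (Sftpc, Scgb1a1 and Sftpa1), from an organ that was removed before culture, were 5.57 and 87.1 CPM in the 2 MEF P-body libraries and at most 0.0166 CPM in cytoplasm. Summed markers of blood were 1.44 to 6.06 CPM in MEF P-bodies and 0.0962 to 0.199 CPM in MEF cytoplasm. The part of such RNA in the members' values was not tested. Without the second of these P-body libraries, the one with the higher value, 86 members were called with a median of 1.40.

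Naive ES cells and MEFs were compared in the same way. The P-body enrichment was lower in naive cells for 86 of 90 members and higher for 0, where 19.8% and 21.5% of all tested genes were called lower and higher. The median difference was −2.03 for the members and −0.17 for all genes, and all 77 core genes were among the 86. It was −1.34 ± 0.12 for Rpl3, −1.78 ± 0.13 for Rps6, −2.08 ± 0.13 for Rplp0 and −1.21 ± 0.12 for Rpsa (adjusted p = 2.62e-05, 1.33e-05, 7.93e-06 and 5.42e-05, edgeR). The largest falls among members at 10 CPM or more were −2.51 for Rpl23a, a large subunit protein at the exit tunnel, and −2.51 for Rpl37rt, a copy of Rpl37. Rpl4 differed by −0.68 (adjusted p = 0.00188, edgeR). The 4 members without a call were Rpl3l, Rpl7l1, Rpl10l and Rpl32l, none of them a core gene, with Rpl7l1 at −0.02 (adjusted p = 0.983, edgeR). This contrast and the one with primed cells share the naive libraries. Leaving out single libraries gave 84 to 86 members.

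**Figure D3:**
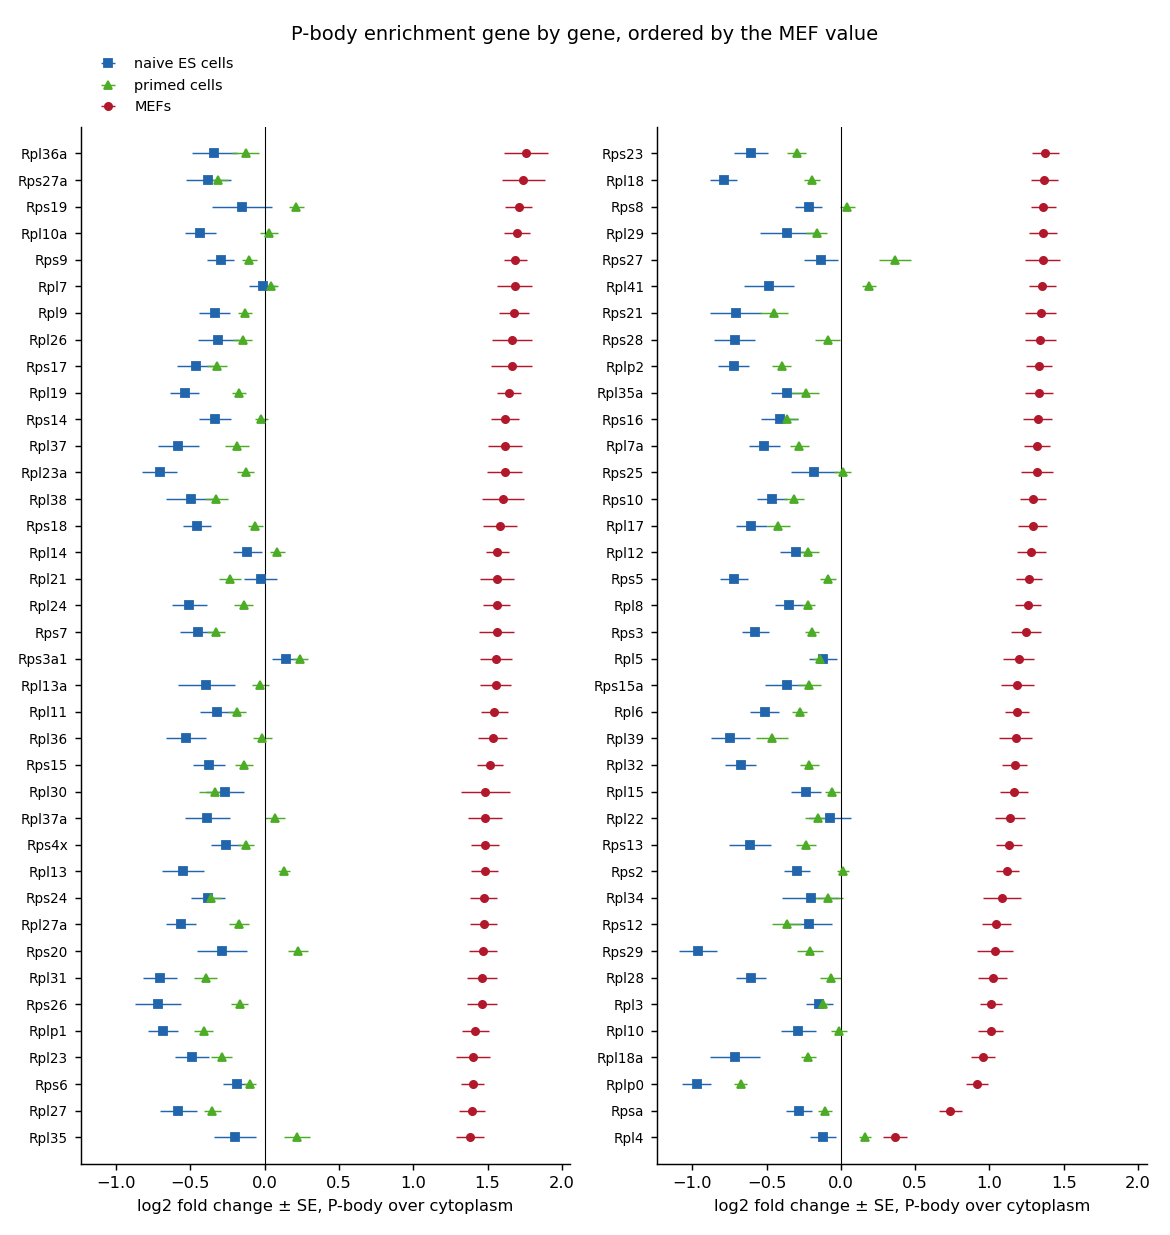
Log2 fold change of P-body over cytoplasm RNA with its SE (x axis) for 76 core genes (y axis, ordered by the MEF value, in 2 panels), in naive ES cells, primed ES cells and MEFs. Rpl4 is at the low end in MEFs with 0.37, and Rplp0 is at −0.97, −0.67 and 0.92 in the 3 states.

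Core transcripts are short. Among other genes, P-body enrichment fell with transcript length in MEFs, rose with it in naive cells and had little relation to it in primed cells. The paper, using the longest isoform of each gene, reports no appreciable relation of length to P-body localization in human HEK293T cells. For ES cells of human, mouse and chicken it describes a preference for AU-rich messages whatever their length. The median reference transcript of the core genes was 827 bases, compared with 1219 bases for mitochondrial ribosomal protein genes and 2489 bases for all protein-coding genes. In MEFs the median log2 fold change of other protein-coding genes was 1.21 for transcripts up to 1000 bases, 0.27 for those up to 3000 bases and −0.50 above 3000 bases, beside 1.38 for the core genes. In naive cells these medians were −0.36, −0.16 and 0.16, beside −0.39, and in primed cells 0.07, 0.03 and −0.05, beside −0.16. The core median was thus close to that of other short messages in naive cells and under it in primed cells. Across tested genes that are no members, the Spearman correlation of length with log2 fold change was −0.49 in MEFs, 0.20 for naive and −0.05 for primed cells, over genes of the same libraries. Correlation with GC content was −0.63 in naive and −0.39 in primed cells. The part of length and base composition in the members' values was not tested.

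**Figure D4:**
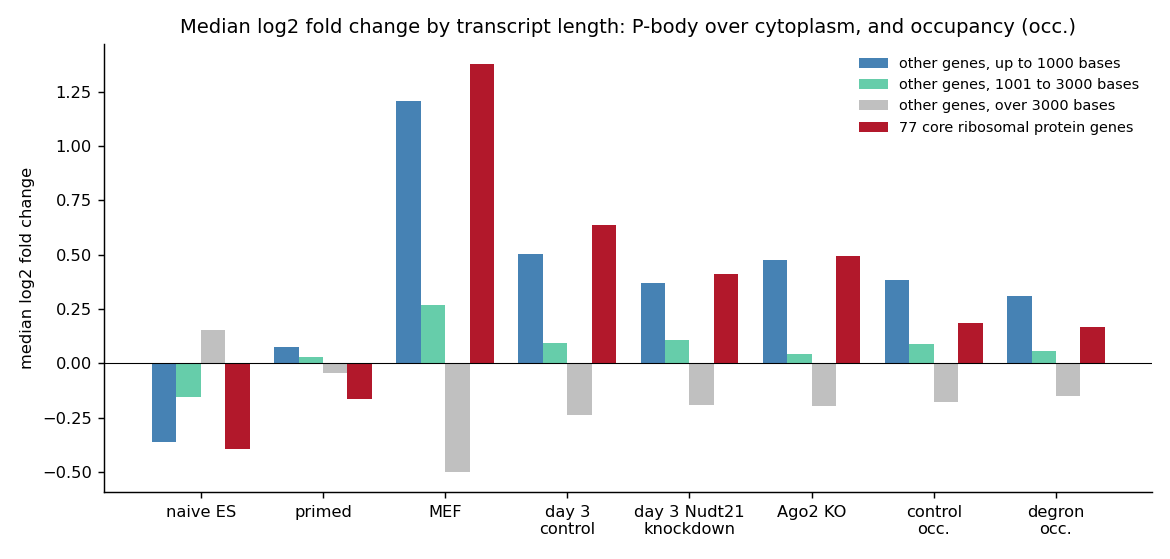
Bars show the median log2 fold change (y axis) of other protein-coding genes in 3 classes of transcript length and of the core ribosomal protein genes, for P-body over cytoplasm RNA in 6 cell states and for ribosome occupancy (x axis). In MEFs the core median of 1.38 lies near the 1.21 of other transcripts up to 1000 bases.

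On day 3 of reprogramming the median of the members lay between the ES cell and MEF medians. In control cells the median log2 fold change was 0.65 (all genes −0.01), and all 89 tested members were above 0. The median of other protein-coding transcripts up to 1000 bases was 0.50, beside 0.64 for the core genes. At the adjusted threshold 0 of 89 were called in either direction, where 0.196% of all genes were called higher and 0.45% lower. Without adjustment 78 members had p below 0.05 in edgeR, and DESeq2 called 75. The shares of all tested genes at these settings, and in the refits below, are not given here. These counts are therefore not a result about the members. Rps6 had 866 and 1042 CPM in P-bodies and 701 and 705 CPM in cytoplasm (0.44 ± 0.12, adjusted p = 0.111, edgeR). Rplp0 had 1332 and 1846 CPM against 1131 and 1223 CPM (0.43 ± 0.16, adjusted p = 0.177, edgeR). Among members at 10 CPM or more the highest were Rpl22l1 and Rpl38 at 1.01 and 0.93 and the lowest Rpl4 and Rpl7l1 at 0.30 and 0.29 (adjusted p = 0.131, 0.154, 0.172 and 0.178, edgeR). Each P-body library was above each cytoplasm library for 87 members, and the share of all tested genes for which this held was not counted. The 2 P-body libraries stood apart, with the first under the second by a core median of 0.64 on the log2 scale. Without the first of them 87 members were called at a median of 0.93, and without the second 76 at a median of 0.29. The test without the low-count filter called 73, 1 fit over all groups 81, and the fits without the first or the second cytoplasm library 0.

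With Nudt21 knockdown 58 of 89 members rose in P-bodies and 0 fell, where 9.04% of all tested genes were called higher and 12.8% lower. The median was 0.41, against 0.00 for all genes. Other protein-coding transcripts up to 1000 bases had a median of 0.37, beside 0.41 for the core genes. Rpl3 had 1238 and 1068 CPM in P-bodies and 878 and 907 CPM in cytoplasm (0.37 ± 0.09, adjusted p = 0.0175, edgeR). Rps6 had 938 and 822 CPM against 624 and 640.0 CPM (0.48 ± 0.09, adjusted p = 0.00525, edgeR). Rpl38, a large subunit protein linked to the translation of Hox mRNAs, had 212 and 203 CPM against 109 and 174 CPM (0.55 ± 0.17, adjusted p = 0.0390, edgeR). At 10 CPM or more the highest members were Rpl21 and Rps14, at 0.67 and 0.60 (adjusted p = 0.00339 and 0.00458, edgeR), and the lowest Rpl28 and Rps4l, at 0.14 and 0.06 (adjusted p = 0.490 and 0.798, edgeR). The count was 2 without the first knockdown cytoplasm library, 46 without the second, 76 and 82 without the first or the second P-body library, and 33 in 1 fit over all groups.

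No member passed the test for a change in enrichment with knockdown. The interaction contrast called 0 of 89, where 0% of all genes were called higher and 0.0118% lower. No member had an unadjusted p below 0.05, and DESeq2 also called 0. The median difference was −0.20 (all genes 0.03). It was −0.11 ± 0.19 for Rplp0 and 0.07 ± 0.15 for Rps6, and Rpl3 was at −0.01 ± 0.15. The members ran from −0.56 for Rpl37rt and −0.55 for Rpl13a to 0.11 for Rpl7l1 and 0.14 for Rpl21, among those at 10 CPM or more (adjusted p = 0.894, 0.894, 0.927 and 0.942, edgeR). Without the first control P-body library 44 members were called lower with knockdown at a median of −0.48, and without the second the median was 0.14 with 0 called.

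In Ago2 knockout ES cells, which lack the Argonaute protein that loads most microRNAs, the median was 0.50, against 0.04 for all genes and 0.29 for all genes at 100 CPM or more. Other protein-coding transcripts up to 1000 bases had a median of 0.48, close to the 0.49 of the core genes. Of the 92 members 0 were called, where 5.47% of all genes were called higher and 1.05% lower. The unadjusted p was below 0.05 for 10 members in edgeR, and DESeq2 called 4, and the matching shares of all tested genes are not given here. The 2 cytoplasm libraries differed for many members. Rps29 had 2600 and 2321 CPM in P-bodies and 2187 and 378 CPM in cytoplasm, and Rpl38 had 1399 and 1234 CPM against 966 and 180.4 CPM. Rps28, from the small subunit, had the same shape, with 2065 and 1950.1 CPM against 1690 and 298 CPM. Rpl3 had 1493 and 1451 CPM against 1561 and 1554 CPM (log2 fold change −0.08, adjusted p = 0.900, edgeR), so the gap was not shared by every member. Of the members at 10 CPM or more Rps27l and Rpl38 were highest, at 1.29 and 1.20, and Rplp0 and Rpsa lowest, at −0.21 and −0.18 (adjusted p = 0.170, 0.276, 0.718 and 0.752, edgeR). Rps3a2 and Rps3a3, copies of Rps3a1 annotated as pseudogenes and listed in this table only, were at 0.28 and 0.35. Without the first cytoplasm library 39 members were called higher at a median of 0.61, without the second 0 at a median of 0.19, and without a P-body library 0 and 1. The replicate numbers taken as a block gave 27, and the test without the low-count filter 15.

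The cytoplasm alone was compared to see whether the family differed before any sorting. Between naive and primed cells 18 of 89 members were higher in naive cytoplasm and 1 was lower, where 22.1% and 21.6% of all tested genes were called. The median was 0.13, against 0.00 for all genes and 0.25 for all genes at 100 CPM or more. Only 12 of the 77 core genes were among the higher ones, with Rplp0 at 1453 and 1558 CPM in naive and 1119 and 1118 CPM in primed cytoplasm (0.43 ± 0.10, adjusted p = 0.0207, edgeR). Rps6 was at 0.03 and Rpl3 at −0.08 (adjusted p = 0.837 and 0.567, edgeR). The member called lower was Rps23rg1, with 13.03 and 9.97 CPM in naive and 28.5 and 25.6 CPM in primed cytoplasm (−1.23 ± 0.22, adjusted p = 0.00671, edgeR), and Rpl21 followed at −0.38 without a call (adjusted p = 0.0683, edgeR). The count was 50 and 34 without the first or the second naive library and 4 and 3 without a primed library, and the median fell to −0.01 without the second naive library.

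Between naive and MEF cytoplasm 36 of 90 members were higher in naive cells and 7 were lower, where 36% and 35.9% of all tested genes were called. Rpl3 had 1037 and 1049 CPM in naive cells and 493 and 499 CPM in MEFs (1.07 ± 0.10, adjusted p = 0.000434, edgeR). The median was 0.25. Without the first or the second naive library 72 and 53 members were called, and without a MEF library 17 and 19.

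The largest cytoplasmic differences were in the paralogs rather than in the core genes. Rps4l, annotated as a transcribed pseudogene at 6:148354656-148355596, had 986 and 860 CPM in naive and 76.2 and 70.5 CPM in MEF cytoplasm, a log2 fold change of 3.65, and was higher by 1.55 in naive than in primed cytoplasm. Rpl10l, an intronless copy of Rpl10 known from the male germ line (12:66283379-66284401), had 66.4 and 108 CPM in naive cytoplasm and no read in the 2 MEF cytoplasm libraries, at least 810-fold higher when the MEF mean is set to a floor of 3 reads per library. In primed cytoplasm it had 14.9 and 11.7 CPM, against 77.6 and 127 CPM in naive cells on the scale of that fit (log2 fold change 2.95, adjusted p = 0.00103, edgeR). Rpl39l was higher in naive than in primed cytoplasm by 3.0 (adjusted p = 0.00232, edgeR), at 12.7 and 21.9 CPM against 2.34 and 1.98 CPM.

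Rpl22l1 went the other way against MEFs, with 14.6 and 20.2 CPM in naive and 50.3 and 69.0 CPM in MEF cytoplasm (−1.78 ± 0.24, adjusted p = 0.00158, edgeR). Rps27l, known as a p53 target, also stood lower in naive cells, at 98.0 and 159 CPM against 230.1 and 273 CPM (−0.97 ± 0.25, adjusted p = 0.0163, edgeR). Reads of Rps4l and Rps4x, of Rpl10l and Rpl10, and of other copies can be assigned to either gene, so the values of these paralogs are uncertain. Rpl10 had 233 and 277 CPM in naive and 325 and 347 CPM in MEF cytoplasm, where Rpl10l had no read. Rps4x had 286 and 314 CPM in naive and 250.3 and 287 CPM in MEF cytoplasm. The part of shared reads in these values was not tested.

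In control ES cells many ribosomal protein messages were higher in polysomes than in total RNA. Ribosome occupancy was taken as the log2 fold change of polysome RNA over total RNA, with 3 libraries each. By the paper's methods the polysome RNA was a pool of all gradient fractions that held ribosomes. A part of each lysate was kept as total RNA and the rest was fractionated, so matched libraries are part of the design. No label says which ones match, and the main test used no match. Of 90 members 44 were higher in polysomes and 0 lower, where 18.8% and 24.1% of all tested genes were called higher and lower. The median was 0.19 (all genes 0.02). The share of all reads was 11.3%, 11.7% and 12.8% in polysome RNA and 9.23%, 9.11% and 10.3% in total RNA, without overlap.

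Rps26, a small subunit protein at the mRNA exit, had 1348, 1379 and 1611 CPM in polysomes and 1048, 1012 and 1124 CPM in total RNA (0.45 ± 0.07, adjusted p = 0.000122, edgeR). Rpl30 of the large subunit had 126, 131 and 145 CPM against 88.5, 90.2 and 104 CPM (0.51 ± 0.08, adjusted p = 4.51e-05, edgeR). Rpl11 was at 0.33 and Rps24 at 0.19 (adjusted p = 0.00131 and 0.0344, edgeR). The highest values among members at 10 CPM or more were 0.60 for Rpl37rt and 0.53 for Rps27l (adjusted p = 0.000419 and 0.000119, edgeR). Other core genes did not pass the test. Rpl3 had 2357, 2344 and 2621 CPM in polysomes and 2406, 2466 and 2494 CPM in total RNA, and the libraries overlapped (−0.01 ± 0.06, adjusted p = 0.931, edgeR). Rplp0 was at −0.07, Rpl12 at −0.06, Rpsa at −0.04 and Rps6 at 0.13 (adjusted p = 0.462, 0.544, 0.715 and 0.130, edgeR). Other short protein-coding messages up to 1000 bases had a median of 0.38, those up to 3000 bases 0.09 and longer ones −0.18. The count of members was 29 without the third polysome library, 27 and 22 without the first or the second total RNA library and 63 without the third.

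With DDX6 degraded, 63 of 90 members were higher in polysomes than in total RNA and 4 were lower, where 24% and 26.8% of all tested genes were called higher and lower. The median was 0.18 (all genes 0.02), beside 0.31 for other protein-coding transcripts up to 1000 bases. The read share was 12.2%, 12.4% and 12.6% in polysomes and 10.2%, 10.4% and 9.65% in total RNA. Rps26 had 1439, 1510.3 and 1495 CPM against 1177, 1121 and 1050 CPM (0.41 ± 0.04, adjusted p = 5.83e-08, edgeR). The 4 lower members were Rps2, Rpl3, Rpl4 and Rps4l, at −0.18, −0.12, −0.13 and −0.13. Rps2 had 3305, 3316 and 3400 CPM in polysomes and 3766, 3989 and 3567 CPM in total RNA (adjusted p = 0.00153, edgeR). Rps27 was called at 1.44 with 8.67, 26.6 and 32.5 CPM against 10.9, 9.87 and 4.58 CPM, and its reads are shared with Rps27rt, so this value is uncertain. Rpl37rt was next at 0.50 (adjusted p = 9.47e-05, edgeR), and Rpl34 was at −0.13 without a call (adjusted p = 0.196, edgeR). In the Ago2 knockout table, which was made with another annotation, Rps27 had 1551 and 1116 CPM in P-bodies and Rps27rt 62.1 and 50.2 CPM, whereas in control polysomes Rps27 had 9.93, 14.7 and 5.63 CPM and Rps27rt 775, 848 and 889 CPM.

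The difference between degron and control cells was small. The interaction contrast of occupancy called 0 of 90 members, where 0% of all genes were called higher and 0% lower, and no member had an unadjusted p below 0.05. DESeq2 called 0 as well. The median difference was −0.05, and 76 of the 77 core genes lay within 0.25 of the core median of −0.04. It was −0.11 ± 0.07 for Rpl3, 0.02 ± 0.08 for Rplp0, −0.09 ± 0.08 for Rps6 and −0.05 ± 0.09 for Rpsa (adjusted p = 0.879, 0.991, 0.902 and 0.963, edgeR). At the ends, among members at 10 CPM or more, were Rps27 and Rps27rt at 0.57 and 0.15 and Rpl34 and Rpl39l at −0.23 and −0.23. Without the third control polysome library the median turned to 0.02.

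In total RNA 1 of 90 members rose with DDX6 loss and 0 fell, where 1.24% and 2.07% of all tested genes were called higher and lower. This member was Rpl30, at 108, 109.8 and 107 CPM in degron cells and 83.5, 84.9 and 98.2 CPM in control cells (0.28 ± 0.07, adjusted p = 0.0402, edgeR). Without the third control library 55 members were called at a median of 0.16, and in each other fit that left out 1 library 0 were called. Of the members at 10 CPM or more Rpl39l followed at 0.22, and Rpl7l1 and Rps27rt were lowest at −0.02 and −0.01 (adjusted p = 0.252, 0.884 and 0.930, edgeR). In polysome RNA 0 of 90 members were called in edgeR, where 1.91% and 2.36% of all genes were called higher and lower. The unadjusted p was below 0.05 for 16 in edgeR and DESeq2 called 3, without the matching shares of all tested genes. With the same limit Rps27 and Rps29 were highest at 1.06 and 0.18, and Rps14 and Rps27l lowest at −0.08 and −0.07 (adjusted p = 0.107, 0.147, 0.732 and 0.572, edgeR). Without the third control polysome library 30 were called higher at a median of 0.12, without the first degron polysome library 1, and the test without the low-count filter called 5.

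**Figure D5:**
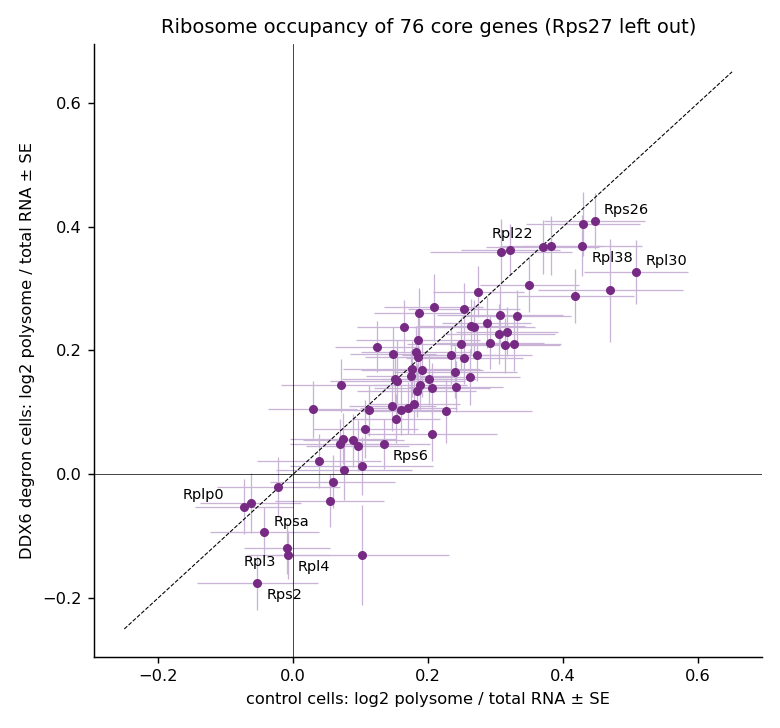
Log2 fold change of polysome over total RNA, with SE, in control ES cells (x axis) and in cells with DDX6 degraded (y axis) for 76 core genes. Rps27 is left out because it shares reads with Rps27rt. Rps26 lies at 0.45 and 0.41 and Rpl3 at −0.01 and −0.12.

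Other gene lists of the translation machinery were read beside the members. Of 78 mitochondrial ribosomal protein genes, nuclear genes whose products work in mitochondria, 22 fell and 7 rose in naive P-bodies (median −0.28) and 70 rose and 1 fell in MEF P-bodies (median 1.15). Their read share was 0.398% and 0.407% in naive P-bodies and 0.509% and 0.585% in naive cytoplasm, and 0.692% and 0.666% in MEF P-bodies against 0.302% and 0.323%. Of 25 other TOP genes 20 rose and 2 fell in MEF P-bodies (median 0.95), and 6 rose and 4 fell in naive ones (median −0.18). Of all tested genes 26.6% rose and 28.7% fell in MEF P-bodies and 22.6% rose and 15.4% fell in naive ones, so the naive counts of the other TOP genes lay near the share over all genes. Fau, a fusion gene that encodes a ribosomal protein under another name, was at −0.66 in naive and 1.65 in MEF P-bodies (adjusted p = 0.00651 and 2.57e-06, edgeR). Npm1, a nucleolar chaperone and TOP gene, rose in both, by 1.51 in naive and 0.95 in MEF P-bodies (adjusted p = 0.000424 and 2.31e-05, edgeR). Of 33 ribosome biogenesis genes 19 fell and 6 rose in MEF P-bodies, with a median of −0.46.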

How the data were processed

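RNA of sorted P-bodies, cytoplasm, polysomes and total lysate was measured. The authors aligned P-body and cytoplasm reads of SMART-Seq libraries with HISAT2 and counted them with featureCounts on the mm10 refGene annotation. Polysome counts came from salmon with the nf-core pipeline. The Ago2 knockout P-body and cytoplasm counts are salmon counts too, the route the paper gives for its randomly primed P-body libraries. Whether the Ago2 knockout libraries were primed that way is not stated in the sources used here. The deposited expected counts of all 3 tables are not all whole (17.56 to 25.74% of a library's values were not in the P-body table, 5.054 to 6.187% in the polysome table and 11.64 to 13.1% in the Ago2 knockout table), and were rounded. The annotation release of the Ago2 knockout table is not given in the sources used here. Further deposited tables hold log2 fold changes and p-values of the authors' DESeq2 comparisons and were not used. Oligo(dT) priming and shared reads between gene copies bear on short messages and paralogs.

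Genes with at least 10 reads over the libraries of a comparison were tested with edgeR 4.0.16 (R 4.3.3, TMM scaling, quasi-likelihood, two-sided) using only the groups compared, with Benjamini-Hochberg adjustment over all genes at 0.05. CPM in a comparison uses its TMM-scaled library sizes, and marker and target CPM the library total. SE is the log2 fold change over the root of F. Alternatives were DESeq2 1.42.0, its size factors, scaling without members, no filter, the replicate block, 1 fit of all groups and leaving out each library, where a group left with 1 library was assumed to vary like the others. The steps were tested on simulated data. The named genes were Rpl3, Rplp0, Rps6 and Rpsa, the 2 highest and the 2 lowest members of each comparison at a mean of 10 CPM or more, and a list of further members and paralogs. Genes that this rule would also name but that are withheld are not reported here. Members and lists were chosen with earlier results of these data known.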

Additional observations from a re-analysis of the deposited data

Results flagged for a closer look

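The P-body enrichment of ribosomal protein messages differed between cell states by a test of the difference itself. It was lower in naive than in primed ES cells for 36 members, among them Rplp0 (difference −0.44) and Rpsa (−0.31). Of all tested genes 11.4% were called lower there. This count changed with the test used and with single libraries left out, as given above. Against MEFs it was lower in naive ES cells for 86 members, beside 19.8% of all tested genes. Among these were Rpl3 (−1.34), Rplp0 (−2.08), Rps6 (−1.78) and Rpsa (−1.21). Medians of other protein-coding transcripts up to 1000 bases were −0.54 against primed cells and −1.69 against MEFs, beside −0.38 and −2.05 for the core genes. Both contrasts use the same naive libraries.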

How the results depend on the processing

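Each of the 16 comparisons was refitted with DESeq2, its size factors, a scaling without the members, no low-count filter, the replicate block, 1 fit of all groups and without each library. MEF enrichment and its difference from naive cells kept their direction and count throughout, with 84 to 87 and 84 to 86 members called. Counts of called members that moved by over 1.5 times were, in primed enrichment, 3 with 1 fit (main 47), in day 3 control enrichment 75 with DESeq2, 73 without filter, 7 with the replicate block and 81 with 1 fit (main 0), in Nudt21 knockdown enrichment 33 with 1 fit (main 58), and in Ago2 knockout enrichment 4 with DESeq2, 15 without filter and 27 with the replicate block (main 0). In naive minus primed enrichment they were 21 with DESeq2, 23 with its size factors, 20 without filter and 5 with 1 fit (main 36). In DDX6 degron against control they were 0 with the replicate block for total RNA (main 1) and 3 with DESeq2, 5 without filter and 2 with the replicate block for polysome RNA (main 0). The median difference moved to −0.28 without filter and −0.28 with 1 fit for naive minus primed, and to −1.78 and −1.80 for naive minus MEF. The share of members with a TOP tract was 60.9% within 10 bases of the start. The replicate numbers were not shown to pair libraries: deviations of same-numbered libraries correlated at −0.06 in naive, 0.08 in primed and −0.01 in MEF samples, 0.17, 0.20 and 0.54 in day 3 control, knockdown and Ago2 knockout samples, at 0.03, 0.33 and 0.03 in control polysome samples and at −0.00, 0.11 and 0.16 in degron samples. By the paper's methods P-bodies were sorted from a cytoplasmic fraction of which an aliquot was kept, and polysome and total RNA came from parts of the same lysates. Matched libraries are thus part of the design, but no label says which ones match, and the main test used no match. With the replicate block 40 naive, 51 primed and 86 MEF members were called, and 61 and 66 in control and degron occupancy.

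Leaving out single libraries gave counts of 0 to 83 for naive, 25 to 61 for primed, 0 to 87 for day 3 control, 2 to 82 for Nudt21 knockdown and 0 to 39 for Ago2 knockout enrichment. The ranges were 4 to 79 for naive minus primed and 0 to 44 for knockdown minus control, 3 to 50 and 17 to 72 for naive against primed and MEF cytoplasm, 22 to 63 and 55 to 69 for control and degron occupancy, and 0 to 55 and 0 to 30 for total and polysome RNA after DDX6 loss. Medians ranged from −0.52 to −0.26 (naive), −0.22 to −0.10 (primed), 1.32 to 1.48 (MEF), 0.29 to 0.93 (day 3 control), 0.27 to 0.55 (knockdown), 0.19 to 0.61 (Ago2 knockout), −0.49 to −0.25 (naive minus primed), −2.16 to −1.70 (naive minus MEF), −0.48 to 0.14 (knockdown minus control), −0.00798 to 0.279 and 0.17 to 0.41 (cytoplasm against primed and MEF), 0.12 to 0.27 and 0.15 to 0.21 (control and degron occupancy), 0.05 to 0.16 (total RNA), 0.01 to 0.12 (polysome RNA) and −0.100 to 0.0205 (change of occupancy). Sign changes of named genes outside these were 0.0230 for Rpl3 in knockdown minus control with 1 fit and, for Rpl3 in control occupancy, 0.000741 with DESeq2 and 0.000791 with its size factors. Without single libraries the sign also changed for knockdown minus control in Rpl3 (−0.13 to 0.10), Rplp0 (−0.32 to 0.13), Rps6 (−0.0552 to 0.198) and Rpsa (−0.336 to 0.0337), for Rps6 between naive and primed cytoplasm (−0.0387 to 0.0737), for Rpl3 (−0.0645 to 0.0207) and Rpsa (−0.128 to 0.0390) in control occupancy, for Rpsa in total RNA (−0.0173 to 0.109), for Rpl3 (−0.0602 to 0.00941) and Rpsa (−0.0556 to 0.0647) in polysome RNA, and for Rplp0 (−0.0391 to 0.0722) and Rpsa (−0.129 to 0.0233) in the change of occupancy. With 2 or 3 libraries a group, small differences cannot be told from the spread, and the cause of these changes was not tested.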

Other observations

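Ribosome biogenesis genes, whose products build ribosomes in the nucleolus, were mostly lower in polysomes, and no test compared them with the ribosomal protein genes. In control ES cells 27 of 33 were lower in polysomes than in total RNA and 3 higher, with a median of −0.55, where 24.1% of all tested genes were lower and 18.8% higher, and 44 ribosomal protein genes were higher with 0 lower. Ncl, which encodes nucleolin, fell by 1.48 on the log2 scale (SE 0.08, adjusted p = 1.47e-10, edgeR). With DDX6 degraded 28 were lower and 2 higher, beside 26.8% and 24% of all genes. In naive P-bodies 10 of the 33 were higher and 4 lower, and in primed P-bodies 7 were higher and 21 lower, with a median of −0.27. Of all tested genes 22.6% were higher and 15.4% lower in naive P-bodies and 26.5% and 24.2% in primed ones.

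In day 3 cytoplasm Rps4l had 64.8 and 67.5 CPM in control cells and 156 and 186 CPM with Nudt21 knockdown, without overlap, and this difference was not tested. Between the same libraries summed markers of naive cells were 502 CPM in each control library and 971 to 1115 CPM with knockdown, and summed fibroblast markers 5299 to 5443 CPM and 1641 to 1670 CPM. Rps4l itself was higher by 3.65 on the log2 scale in naive than in MEF cytoplasm, and the part of the cell state in its day 3 values was not tested.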
